A study of Mus musculus with 4 samples.

Results

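The genes described here are 8 transcription factors that act at the commitment step of fat cell formation, the 4 EBF factors Ebf1, Ebf2, Ebf3 and Ebf4, the zinc finger factors Zfp423, Zfp467 and Zfp521, and Prdm16. They were chosen by name, and every array probe whose annotated gene symbol was one of them was taken, which gave 10 of the 26408 probes fitted and 8 of 17734 genes. Zfp467 and Zfp521 had 2 probes each and the other genes 1 each. Expression was measured on 1-colour arrays in the mouse preadipocyte line 3T3-L1, whose cells turn into fat cells when induced. The berberine group comprised 2 samples that received 13.47 µM berberine, a plant alkaloid, together with the induction mixture for 48 h, and the control group comprised 2 samples that received the mixture alone for 48 h. The mixture given to both groups was made of insulin at 1 µg/ml, dexamethasone at 1 µM and isobutylmethylxanthine at 0.5 mM. The protocol field names berberine for all 4 samples, so the groups were taken from the sample titles. The study asked how berberine affects differentiation of these cells. No uninduced sample was analysed here, so nothing can be said about how these factors changed from the preadipocyte state.

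EBF factors are DNA-binding proteins with a helix-loop-helix domain that bind as dimers. In mouse fat cell precursors, EBF1 and EBF2 act ahead of and together with PPARγ, and EBF2 is required for brown fat identity together with PRDM16. ZFP423 marks committed preadipocytes and raises their response to bone morphogenetic proteins (BMPs), ZFP521 is its close relative and opposes both EBF1 and ZFP423, and ZFP467 favours fat over bone in mouse marrow stroma.

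Berberine samples differed from controls at many genes, so the commitment factors have to be read against a high background. An adjusted p under 0.05 in the limma fit was reached by 44.8% of all probes, 27.1% higher and 17.7% lower with berberine, and among the 10 commitment factor probes by 6, of which 2 were higher and 4 lower. Counting the brightest probe of each gene, 48.2% of genes passed (30.0% higher, 18.2% lower), and 4 of the 8 factors did, with 1 higher and 3 lower. The lower ones include Prdm16, whose probe was too dim to read. Their median log2 change was -0.37, against 0.20 for all genes. Values below are quantile-normalized log2 intensities, errors are SD over 2 arrays, and changes are berberine minus control. The labels do not say whether the samples were separate cultures, so p-values reflect only the spread among 4 arrays, which may be technical. Intensities of different probes are not comparable, so no gene is ranked above another in level.

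The arrays of a group were alike, with Pearson correlations across probes of 0.994 for berberine and 0.989 for control, against 0.912 to 0.914 between groups. Both groups were checked against marker lists, whose counts stand against 30.0% of all genes higher and 18.2% lower. Fewer probes passed without a berberine array over all genes too, so a lower count there is not by itself particular to a list. Of 10 mature fat cell markers 6 were lower and 2 higher, and 0 were higher without berberine replicate 1 or 2. The summed intensity of the 10 markers was 33315 and 35344 on the berberine arrays, against 603978 and 580443 on the control arrays. Cidec, which encodes a lipid droplet protein, averaged 6.70 ± 0.06 with berberine and 16.43 ± 0.10 in control, and Cfd, which encodes adipsin, 5.36 ± 0.28 and 16.07 ± 0.16 (n = 2 each). The 2 higher markers were Lipe, a lipase, at a log2 change of 1.01 (adjusted p = 0.00418, limma) and Slc2a4, the insulin-responsive glucose transporter, at 0.58 (adjusted p = 0.0156), both calls being lost also in the deposited values and that of Slc2a4 after scaling on the 75th percentile. This shift moved with the changes of the commitment factors, and its part in them was not tested. In bulk RNA, fewer cells of a type and less RNA per cell cannot be told apart. The summed intensity of 5 B cell markers was 1944 and 2685 with berberine, against 1998 and 1215 in control, with 1 higher and 0 lower. That of 4 skeletal muscle markers was 2689 and 2639, against 1722 and 1413 (2 higher, 0 lower), and that of 4 macrophage markers 808 and 764, against 738 and 878 (1 higher, 1 lower). Without berberine replicate 1 or 2, 0 of the markers in these 3 lists passed. Their part in the changes below was not tested.

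Ebf1, a factor of both B cell and fat cell development, was lower with berberine. Its deposited intensities were 1152 and 1349 in berberine samples, against 7009 and 7615 in control samples. After normalization it read 10.49 and 10.56 with berberine and 12.61 and 13.15 in control, so both berberine arrays lay below both control arrays. The means were 10.52 ± 0.05 and 12.88 ± 0.38 (n = 2 each), a fall of 5.13-fold (log2 change -2.36, SE 0.21, adjusted p = 0.00124, limma). Its absolute change exceeded that of 94.9% of all probes.

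Ebf2, the EBF factor tied to brown fat identity, differed in the same direction but did not pass. It read 8.75 and 7.63 with berberine, against 9.22 and 9.35 in control. The groups did not overlap, yet the berberine arrays differed from each other by more than 1 of them did from control. The log2 change was -1.09 (95% interval -2.08 to -0.11, adjusted p = 0.0722, limma). Without berberine replicate 1 it was -1.66 (adjusted p = 0.0266), and without berberine replicate 2 it was -0.53 (adjusted p = 0.137), so the size of the difference rests on which berberine array is used.

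Ebf3 and Ebf4 did not pass. Ebf3 read 11.91 and 11.92 with berberine, against 12.07 and 11.88 in control, with the control arrays lying on either side of the berberine arrays. Its log2 change was -0.06 with a 95% interval of -0.40 to 0.28 (adjusted p = 0.725, limma). Ebf4, a less studied member of the family, read 10.40 and 10.24 with berberine, against 10.45 and 10.70 in control. Both berberine arrays were below both control arrays, but the log2 change was -0.26 with a 95% interval of -0.65 to 0.13 (adjusted p = 0.223, limma). A separation of the 2 groups without overlap is common here and was seen at 74.8% of all probes and 77.5% of all genes, against 8 of the 10 commitment factor probes and 6 of the 8 factors. A change of the size seen at Ebf1 lies outside both intervals.

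**Figure D1:**
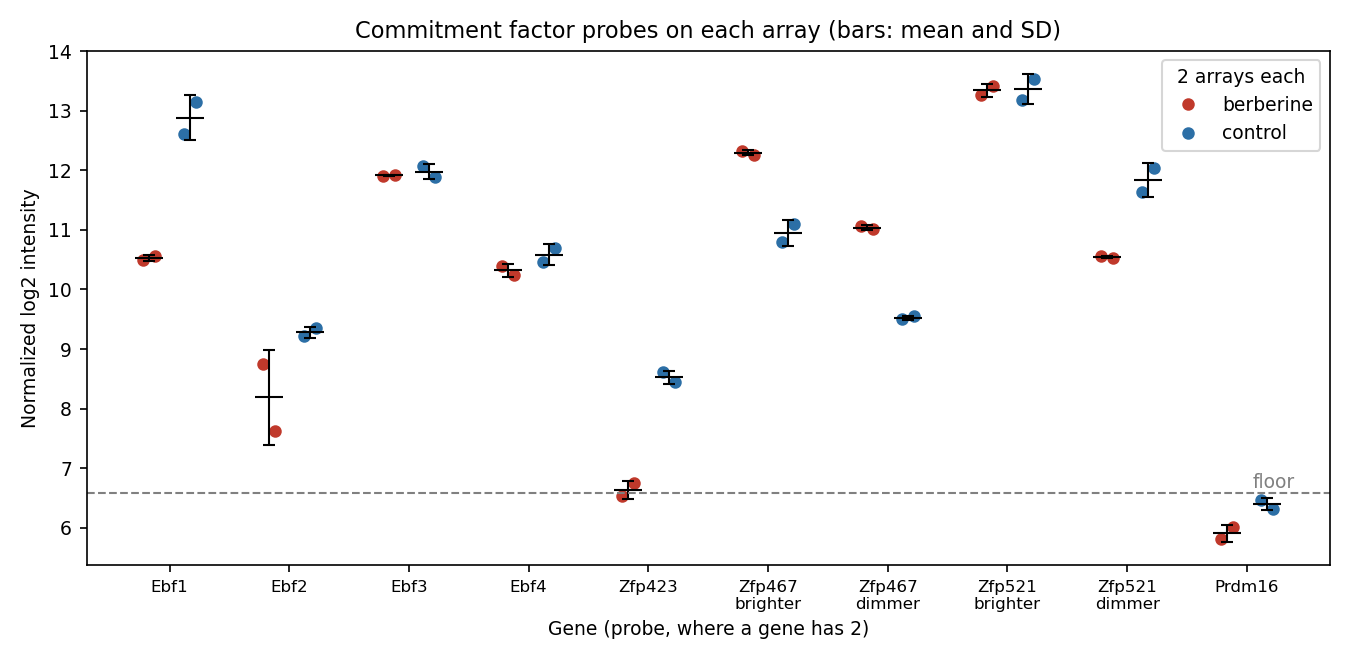
Normalized log2 intensity (vertical axis) of the 10 probes of the 8 commitment factors, with berberine arrays in red on the left of each pair and control arrays in blue on the right. Points are the 2 arrays of a group, bars the mean and SD, and the dashed line the floor at 6.58. Ebf1, Zfp423 and the dimmer Zfp521 probe are lower with berberine, both Zfp467 probes are higher, and the 2 berberine arrays stand apart at Ebf2.

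Zfp423, which drives commitment to the fat lineage, fell to a dim level. Deposited intensities were 73 and 111 with berberine, against 538 and 387 in control. Normalized values were 6.53 and 6.75 with berberine, against 8.61 and 8.45 in control, with no overlap between the groups. The means of 6.64 ± 0.15 and 8.53 ± 0.11 (n = 2 each) gave a log2 change of -1.89 (SE 0.15, adjusted p = 0.00082, limma), or 3.70-fold. The floor used here, the 25th percentile of an array, stands at 6.58, and 1 of the 2 berberine arrays lay under it. The fold therefore rests on a berberine level close to that floor, and its size is uncertain. The floor is a chosen percentile, and the lowest level this probe can read was not measured.

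Zfp467 was the only one of the 8 factors called higher after quantile normalization, and both of its probes rose. The brighter probe read 12.32 and 12.26 with berberine, against 10.79 and 11.10 in control, a rise of 2.54-fold (log2 change 1.35, SE 0.15, adjusted p = 0.00255, limma). The dimmer probe read 11.07 and 11.01 with berberine, against 9.50 and 9.55 in control, a rise of 2.86-fold (log2 change 1.52, SE 0.12, adjusted p = 0.000877). At each probe both berberine arrays were above both control arrays. The deposited intensities of the brighter probe were 4914 and 5196 with berberine and 2352 and 2117 in control, so the direction is already present before normalization.

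Zfp521, the factor that opposes EBF1 and ZFP423, gave different answers at its 2 probes. The brighter probe read 13.27 and 13.41 with berberine, against 13.18 and 13.54 in control, and the groups overlapped. Its log2 change was -0.02 with a 95% interval of -0.46 to 0.42 (adjusted p = 0.929, limma). The dimmer probe read 10.56 and 10.53 with berberine, against 11.63 and 12.04 in control, a fall of 2.44-fold (log2 change -1.28, 95% interval -1.74 to -0.83, adjusted p = 0.00442). The brighter probe exceeded the dimmer by 2.70 and 2.88 on the berberine arrays, against 1.55 and 1.51 on the control arrays, so that the 2 changes differed by 1.26 on the log2 scale. An exact two-sided permutation test over 2 against 2 arrays gave p = 0.333, the smallest it can give. The call at the dimmer probe was lost without berberine replicate 1 (adjusted p = 0.0618) or berberine replicate 2 (0.0613), while the brighter probe turned to 0.67 and passed (adjusted p = 0.0238) when arrays were centred on their median. No direction is given for the gene. Mixed calls were frequent on this array, where 1094 of the 1704 genes with several probes and at least 1 called probe also had a probe that was not called. How often the changes of 2 probes differed by as much as at Zfp521 was not counted.

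Prdm16, which determines brown and beige fat identity, lay under the floor in both groups. It read 5.81 and 6.01 with berberine, against 6.47 and 6.32 in control, and its mean level exceeded that of 16.8% of probes. The log2 change of -0.49 (SE 0.14) passed narrowly (adjusted p = 0.0449, limma), but no fold is given for a probe this dim. The call was lost in the 10 alternative fits by probe that included it, with adjusted p-values of 0.0514 to 0.74. It was kept when the probes of each gene were averaged before the fit (adjusted p = 0.0368). Prdm16 has 1 probe, so averaging left its own values and its change of -0.49 as they were.

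**Figure D2:**
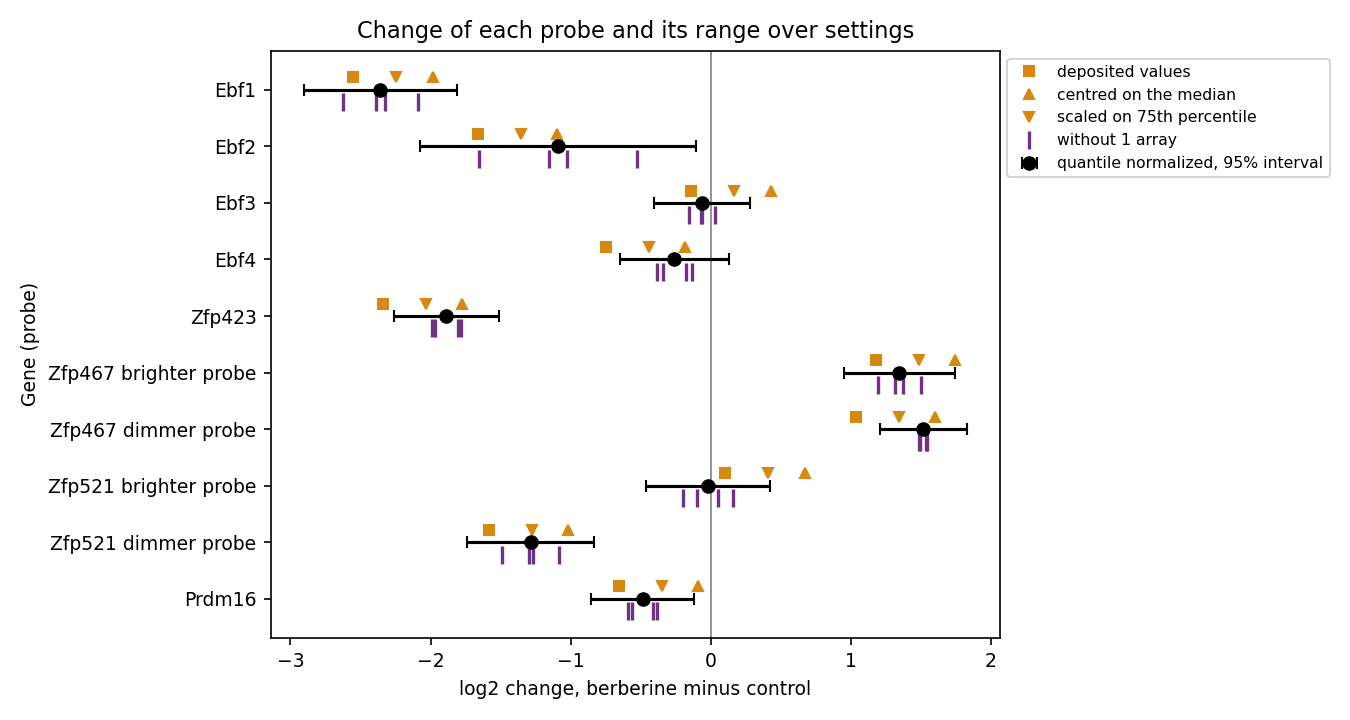
Log2 change, berberine minus control (horizontal axis), of the 10 probes. Black points are the quantile-normalized values with 95% intervals, orange symbols the same change with deposited values, with arrays centred on their medians and with arrays scaled on their 75th percentiles, and purple marks the change without 1 array. Ebf3 and the brighter Zfp521 probe lie on both sides of 0 under these, while all other probes, those of Ebf1, Zfp423 and Zfp467 among them, keep their side.

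The scale of the arrays bears on all of these values. Quantile normalization left all probes together at a median log2 change of 0.17, whereas that median was -0.05 with deposited values, 0.52 with arrays centred on their medians and 0.26 with arrays scaled on their 75th percentiles. Over these 4 scalings Ebf1 lay between -2.55 and -1.99, Zfp423 between -2.34 and -1.78, and the brighter Zfp467 probe between 1.18 and 1.75, each past the threshold every time. Ebf3 was at -0.14 in the deposited values and 0.43 after centring, and passed in neither. Ebf2 passed in the deposited values (log2 change -1.66, adjusted p = 0.00755) and after scaling on the 75th percentile (-1.36, adjusted p = 0.0264).

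Promoter sequences are shown for the 3 factors that kept their call under each of the 11 alternative settings run, Ebf1 and Zfp423, which fell, and Zfp467, which rose. They are RefSeq sequences of GRCm38.p6, 250 bases before to 50 after an annotated start, 5′ to 3′. Capitals mark matches on either strand to 4 motifs searched, the core of the EBF palindrome CCCNNGGG, the C/EBP site TTGCNNAA, the cyclic AMP response element TGACGTCA and the GC box GGGCGG. The Ebf1 sequence is chr11:44617850-44618149 on the plus strand, and those of Zfp423 (chr8:87959546-87959845) and Zfp467 (chr6:48445041-48445340) are on the minus strand.
Ebf1: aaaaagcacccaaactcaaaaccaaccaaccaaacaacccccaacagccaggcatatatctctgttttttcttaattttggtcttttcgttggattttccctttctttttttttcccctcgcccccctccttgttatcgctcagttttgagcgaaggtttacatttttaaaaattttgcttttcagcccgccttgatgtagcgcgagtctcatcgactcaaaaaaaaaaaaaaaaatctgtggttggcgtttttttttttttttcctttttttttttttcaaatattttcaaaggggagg
Zfp423: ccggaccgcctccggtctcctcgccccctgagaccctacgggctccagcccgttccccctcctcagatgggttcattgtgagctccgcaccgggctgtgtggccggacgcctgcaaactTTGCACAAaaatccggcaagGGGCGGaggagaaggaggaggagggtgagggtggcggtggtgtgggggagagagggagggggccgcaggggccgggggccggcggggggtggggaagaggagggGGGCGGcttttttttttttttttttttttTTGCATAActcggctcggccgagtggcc
Zfp467: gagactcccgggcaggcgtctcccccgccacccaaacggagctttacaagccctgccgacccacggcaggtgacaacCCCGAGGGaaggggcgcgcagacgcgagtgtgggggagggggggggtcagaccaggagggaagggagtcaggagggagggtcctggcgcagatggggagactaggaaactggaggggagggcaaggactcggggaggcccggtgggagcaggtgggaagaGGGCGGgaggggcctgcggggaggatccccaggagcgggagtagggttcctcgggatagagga
The Ebf1 window held none of the 4 motifs and 36.7% G and C, against 65.7% for Zfp423 and 69.7% for Zfp467. Zfp423 held 2 C/EBP matches, at bases 120 to 127 and 273 to 280 of the window, and 2 GC boxes. Zfp467 held 1 EBF core, at bases 78 to 85, and 1 GC box. Ebf1 and Zfp423 each have a second window in the table, which differs from the one shown. That of Ebf1 (chr11:44619978-44620277) also held none of the motifs but 53.0% G and C, and that of Zfp423 (chr8:87804390-87804689) held 1 EBF core, 1 GC box and 0 C/EBP matches. Of 32851 promoters of this length, 13.7% held the EBF core, 10.8% the C/EBP letters, 1.79% the cyclic AMP element and 35.7% the GC box. Promoter entries were found for 6 of the 8 factors, all but Ebf2 and Zfp521, with 8 windows in all. The EBF core was in 3 of these windows, a C/EBP match in 1, the cyclic AMP element in 0 and a GC box in 6. A match describes letters only, and no match says nothing about whether a factor acts there.

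Named probes whose pattern over the 4 arrays was most like that of Ebf1, by the distance between log2 values centred on each probe's own mean, were Tmem41a (distance 0.073), Bcl2l1 (0.097) and Adk (0.10). These 3 came from 14948 probes above the floor on all arrays, of which 51 lay within a distance of 0.25.

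Partners of the EBF and ZFP423 factors, listed together with other commitment regulators, moved both ways. Of 16 measured, 7 were higher and 4 lower, with a median log2 change of 0.33. Changes in both directions are common here, with 30.0% of all genes higher and 18.2% lower (median 0.20). Gata3, a factor that holds preadipocytes back from differentiation, read 11.55 and 11.49 with berberine, against 8.82 and 9.04 in control, a rise of 6.02-fold (adjusted p = 0.000303, limma). Its relative Gata2 rose 2.93-fold at the brighter of its probes (adjusted p = 0.000786), and the dimmer one was at -0.33 and did not pass (adjusted p = 0.0815). Tle3, a corepressor that favours white over brown fat genes and competes with PRDM16, read 6.70 and 6.75 with berberine, against 8.91 and 9.09 in control, a fall of 4.84-fold (adjusted p = 0.000376). Klf4, an early factor of the induction, fell 1.79-fold (adjusted p = 0.00587), a call lost in 5 of 11 alternatives, among them the fits without berberine replicate 1 or 2. Without either of those arrays 4 genes of the list were higher and 1 lower.

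BMP signalling, to which ZFP423 sensitizes precursors, had 6 of 13 genes higher and 2 lower (median 0.41). The shares of all genes were 30.0% higher and 18.2% lower (median 0.20). The higher genes of the list include Smad1 (2.68-fold, adjusted p = 0.00454, limma), the receptor Bmpr1b (2.16-fold, adjusted p = 0.0066), Smad5 and Smad9. The calls of Smad1, Bmpr1b, Smad5 and Smad9 were lost without berberine replicate 1 or 2. The inhibitory Smad6 was at -0.73 and did not pass (adjusted p = 0.0503). The genes of this list thus give no single direction for the pathway. Bmp2, a ligand, read 9.99 and 9.95 with berberine, against 12.34 and 12.70 in control, a fall of 5.85-fold (adjusted p = 0.000502, limma), and the receptor Bmpr1a fell 2.11-fold (adjusted p = 0.00241). The inhibitory Smad7 read 12.20 and 12.14 with berberine, against 9.53 and 9.64 in control, a rise of 2.59 on the log2 scale (adjusted p = 0.000233). Grem1, a secreted BMP antagonist, rose 2.85-fold (adjusted p = 0.0039), a call lost without berberine replicate 1 or 2. Without either of those arrays 1 gene of the list was higher and 2 lower, and in the deposited values 3 were higher and 3 lower.

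Relatives of PRDM16 were higher or did not pass, and its partners moved both ways. Among 13 PRDM paralogs 7 were higher and 0 lower, with a median log2 change of 0.79. Of all genes 30.0% were higher and 18.2% lower, with a median of 0.20. The paralog median was 0.25 in the deposited values (all genes -0.02) and 0.81 after centring (all genes 0.55). After scaling on the 75th percentile it was 0.55 (all genes 0.29). Prdm14 and Prdm8, among the higher ones, had control means under the floor. Prdm4 rose 2.70-fold (adjusted p = 0.00204, limma) and Prdm9, known for its role in meiosis, 1.74-fold at the brighter probe (adjusted p = 0.00627), with the other probe also higher, a call lost in 4 of 11 alternatives. The count of higher paralogs was 1 in the deposited values, where higher calls over all probes also fell, from 7164 to 2396. The count fell without berberine replicate 1 or berberine replicate 2 as well, as did higher calls over all probes. Of 11 PRDM16 partner genes 4 were higher and 3 lower (median 0.16), against 30.0% and 18.2% of all genes. The corepressor Ski rose 2.86-fold and Cul2, a ubiquitin ligase subunit that targets PRDM16, 2.93-fold, the other Cul2 probe changing by 0.25 without passing. Ctbp2, a corepressor, fell 2.14-fold, a call lost without berberine replicate 1, its other probe being at 0.40 and not passing, and the coactivator Ppargc1b fell 2.33-fold. Without berberine replicate 1 the partners counted 2 higher and 1 lower, and without berberine replicate 2 they counted 2 and 2.

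The adipogenic factors and the brown and beige fat genes listed were lower, not past the threshold or too dim to read, with the exception of Zic1. Among all genes 18.2% were lower and 30.0% higher. Of 7 adipogenic factors 4 were lower and 1 higher, the higher one being Pparg, which was dimmer than the floor whether berberine was given or not, and for which no direction can be read. Cebpa fell 6.73-fold and Klf15, a factor induced by glucocorticoid, 6.92-fold, to 7.37 on both berberine arrays, against 10.47 and 9.85 on the control arrays (adjusted p = 0.000993, limma). Of 14 brown and beige fat genes 1 was higher and 3 lower, and 5 lay under the floor in both groups, among them Ucp1, the uncoupling protein of brown fat. Cox8b, a respiratory subunit of brown fat, fell at least 8.06-fold and Kcnk3, a potassium channel, at least 4.60-fold, both to below the floor with berberine. Zic1, a factor found in classical brown fat, rose at least 1.29-fold, a call lost in 4 of 11 alternatives. Without berberine replicate 1 or 2, each of these lists counted 2 lower and 0 higher.

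**Figure D3:**
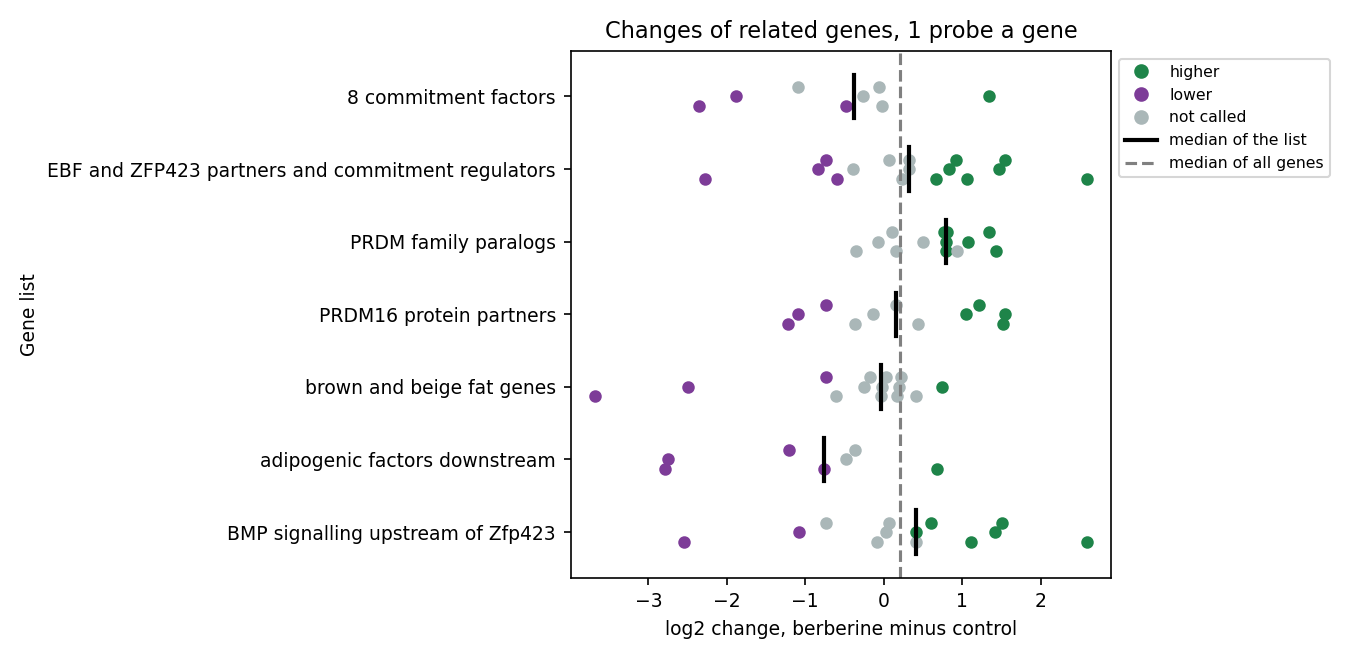
Log2 change, berberine minus control (horizontal axis), of the 8 commitment factors and of 6 lists of related genes, 1 probe a gene. Green points were called higher, purple lower and grey not called, black bars are list medians, and the dashed line is the median of all genes at 0.20. The commitment factors have a median of -0.37, the adipogenic factors -0.76 and the PRDM paralogs 0.79. In the deposited values, not drawn, these medians are -0.70, -0.85 and 0.25, against -0.02 for all genes.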

How the data were processed

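Total RNA of 4 samples carried 1 dye, Cy5, per the labels' protocols. The authors deposited whole-number probe intensities on a linear scale, whose scanner, background correction and scaling were not given in the sources used here. Median intensity was 237 and 280 on the berberine arrays and 423 and 350 on the control arrays. Of 26423 probes, 15 with a value of 0 or below were dropped, and log2 intensities of the other 26408 were quantile normalized, because array medians differed by 0.81 on log2, above a limit of 0.5. Of the probes, 20377 had 1 gene symbol in GEO's platform annotation and 6046 were unnamed here. Symbols were updated through RefSeq names of GRCm38.p6, with 18213 current, 2126 older and 38 kept.

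Berberine was compared with control by limma 3.58.1 (lmFit, eBayes, R 4.3.3), adjusted by Benjamini-Hochberg over all probes, with 2 residual and 2.89 prior degrees of freedom. A gene was represented by its brightest probe. A fold against a group under the floor (25th percentile, log2 6.58) is a lower bound. In simulated data with known changes, few probes changed, evenly in both directions. There the fit recovered the direction and size of the changes on average but left many of them uncalled. Here 44.8% of probes passed, more of them higher than lower, so the simulation does not show how the fit performs on these arrays. In each related list, up to 2 called genes per direction with the smallest p, dim ones left out, are named. In the BMP list the other higher genes and Smad6 are named too. Likeness was measured to the called commitment factor probe of highest mean intensity. The members and lists were chosen with earlier results of these data known. Alternatives covered scaling, replicate block, variance prior, a pseudocount of 16, dim probes, averaged probes and each array left out. The number of arrays limits the precision.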

Additional observations from a re-analysis of the deposited data

How the results depend on the processing

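Of 109 changes of the 10 commitment factor probes under 11 alternatives, 92 kept their direction and side of the threshold or did not pass in either fit, 12 lost the call, 4 gained it and 1 turned round. The probes past the threshold numbered 11838 (7164 higher, 4674 lower), 6687 in the deposited values (2396 higher, 4291 lower), 14005 after centring on the median (10694 higher, 3311 lower), and 4339 to 10772 without 1 array. The lone array is then assumed to vary like the other group, and the low end is without a berberine array. Among the 10 commitment factor probes 4 to 6 passed under every alternative, and after centring 3 were higher and 3 lower. Averaging the probes of a gene gave 5 of 8 genes past the threshold, with Zfp521 lower (log2 change -0.65, adjusted p = 0.0258) in place of 2 disagreeing probes. The brighter Zfp521 probe turned to 0.67 after centring. For these changes with the scaling the cause was not tested.

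The replicate block gave 12760 probes. With it Ebf2 passed (adjusted p = 0.00128) and Prdm16 did not (0.0514), and it changed no other call among the 10 probes. Deviations of equally numbered arrays from their group means correlated across probes at 0.0035, and nothing in the labels pairs the samples. Whether equally numbered samples shared a culture or a day is not known. Signal over background limits Prdm16 and the berberine values of Zfp423.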

Other observations

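Genes that mark adipose progenitors moved both ways, as did genes over the whole array (30.0% higher, 18.2% lower). Of 11 progenitor markers measured, 5 were higher and 4 lower, with a median log2 change of -0.09, against 0.20 for all genes. Without berberine replicate 1 these counts were 1 and 1, and without berberine replicate 2 they were 1 and 3. Col1a1, a collagen of fibroblast-like precursors, read 8.71 and 8.91 with berberine, against 7.23 and 7.40 in control, a rise of 2.81-fold (adjusted p = 0.00155, limma). Pdgfra, a receptor that marks fat cell precursors, fell 1.99-fold (adjusted p = 0.00299), a call lost under each of the 3 other scalings and without berberine replicate 1. Dlk1, a preadipocyte marker, fell 3.09-fold at 1 probe (adjusted p = 0.000704), and its dimmer probe was at -0.20 (adjusted p = 0.355). Of 6 bone cell markers 3 were higher and 1 lower, and 1 and 0 without berberine replicate 1 or 2. Spp1, which encodes osteopontin, read 16.66 and 16.54 with berberine, against 14.80 and 14.77 in control, a rise of 3.52-fold (adjusted p = 0.000591). Sp7, an osteoblast factor, fell 2.66-fold (adjusted p = 0.00748), and Runx2, which acts ahead of it in bone, rose 1.64-fold (adjusted p = 0.0136). The calls of Sp7 and Runx2 were lost without berberine replicate 1 or 2, and that of Runx2 also without control replicate 2.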
